A study of Mus musculus with 106 samples.

Results

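The 81 genes described here encode the protein components of the cytosolic ribosome. They were taken by symbol from 21938 protein-coding mouse genes: every Rpl or Rps gene numbered with digits and an optional letter, together with Rpsa, Rplp0, Rplp1, Rplp2 and Fau. Kinase genes of the Rps6k family and Rps-ps pseudogenes were left out. Of these genes, 46 encode proteins of the large subunit, 32 of the small subunit and 3 of the stalk, and 78 genes for mitochondrial ribosomal proteins were read in the same way for comparison. The histone marks H3K27ac and H3K4me3 had been mapped by ChIP-seq, in which an antibody pulls down marked chromatin fragments and stretches rich in fragments are called as peaks. Peak lists of 70 libraries were read, 35 for each mark. All mice were C57BL/6J and 12 to 14 weeks old; controls had no diabetes, and diabetic mice had been given streptozotocin into the peritoneum at 42 to 45 mg/kg per day for 5 days and were used 6 weeks after the last injection when their glucose exceeded 13.9 mmol/L. The material labelled HSC (hematopoietic stem cells) was bone marrow from which cells with CD3, CD4, B220, Ter119 or Gr1 had been removed, and stem cells were not sorted from it. Bone marrow-derived macrophages (BMDM) had been grown for 7 days with medium conditioned by L929 cells in 5 mmol/L glucose, in control and diabetic groups alike. Part of the cultures then received LPS (100 ng/mL) and IFN-γ (10 ng/mL) for 16 h and are called stimulated, and the rest stayed unstimulated. Each mark and disease group therefore had 3 cell states (HSC, BMDM left unstimulated, BMDM with the stimulus), which made 12 groups. Of these, 10 held 6 libraries and 2, the unstimulated diabetic BMDM of either mark, held 5, with number 3 absent.

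Ribosomal proteins fold around the ribosomal RNAs to form the small subunit, which decodes the messenger RNA, and the large subunit, which joins amino acids. Their genes are transcribed in all dividing cells at high rates from short promoters, and their transcripts commonly begin with a C followed by a run of pyrimidines, the terminal oligopyrimidine (TOP) tract through which growth signals set their translation. H3K4me3 marks the start sites of active genes, and H3K27ac marks active promoters and enhancers.

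A gene was given the strongest peak that reached within 1000 bp of any of its start sites. Strength was read as a percentile, the share of all protein-coding genes in the same library with a lower −log10 p, so that 100 is the strongest promoter of a library. A gene without a peak was set at 0, which says that no peak was listed and not that the mark was absent. Width was turned into a percentile in the same way. A percentile sets a gene against the other genes of its library and does not measure an amount of the mark.

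Promoter sequences of 8 of these genes are printed because the results below turn on them. The laminin receptor gene Rpsa had high levels of both marks. Rps27, Rpl13a and Rpl41 passed the H3K27ac strength test of HSC against unstimulated BMDM. Under some alternatives Rps27 and Rpl41 did not pass. The X-linked Rps4x, Rpl10, Rpl36a and Rpl39 ranked low in both marks. Each sequence runs 5′ to 3′ on the strand of the gene from 120 bases before to 30 bases after the RefSeq start on GRCm38.p6. Capitals mark the motifs defined after the sequences, on either strand.
Rpsa: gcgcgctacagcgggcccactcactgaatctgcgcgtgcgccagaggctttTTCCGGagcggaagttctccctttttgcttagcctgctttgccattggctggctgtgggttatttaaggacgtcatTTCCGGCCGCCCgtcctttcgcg
Rps27: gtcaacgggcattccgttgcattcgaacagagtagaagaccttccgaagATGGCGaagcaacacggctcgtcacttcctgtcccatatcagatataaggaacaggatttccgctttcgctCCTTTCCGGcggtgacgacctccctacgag
Rps4x: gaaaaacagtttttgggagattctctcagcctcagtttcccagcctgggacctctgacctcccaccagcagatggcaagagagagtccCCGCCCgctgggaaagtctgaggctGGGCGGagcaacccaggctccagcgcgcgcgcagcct
Rpl13a: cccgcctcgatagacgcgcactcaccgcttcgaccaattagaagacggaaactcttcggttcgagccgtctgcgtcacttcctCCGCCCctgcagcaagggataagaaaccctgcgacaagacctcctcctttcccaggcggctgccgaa
Rpl41: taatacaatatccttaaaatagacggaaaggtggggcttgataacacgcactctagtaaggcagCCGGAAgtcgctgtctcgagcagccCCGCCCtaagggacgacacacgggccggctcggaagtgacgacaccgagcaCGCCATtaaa
Rpl10: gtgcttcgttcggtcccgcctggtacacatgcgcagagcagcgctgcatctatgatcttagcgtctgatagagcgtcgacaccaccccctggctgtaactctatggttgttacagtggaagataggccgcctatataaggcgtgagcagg
Rpl36a: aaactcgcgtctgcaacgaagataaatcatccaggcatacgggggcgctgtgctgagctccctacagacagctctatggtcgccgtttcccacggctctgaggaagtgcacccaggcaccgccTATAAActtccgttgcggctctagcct
Rpl39: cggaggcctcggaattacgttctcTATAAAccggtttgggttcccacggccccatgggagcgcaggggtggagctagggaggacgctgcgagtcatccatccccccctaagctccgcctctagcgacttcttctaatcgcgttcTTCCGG
In the same order these are chr9:120127646-120127795 on the plus strand, chr3:90213619-90213768 minus, chrX:102189362-102189511 minus, chr7:45128716-45128865 minus, chr10:128549139-128549288 minus, chrX:74270696-74270845 plus, chrX:134585534-134585683 plus and chrX:37085193-37085342 minus. Each covers the first bases of the first exon and the sequence before it. In Rps27 the capitals join a pyrimidine run at the start with the TTCCGG that overlaps it, and in Rpsa the last run of capitals is TTCCGG followed directly by GGGCGG read on the other strand.

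Motifs were counted in the RefSeq windows from 250 bases before to 50 bases after the start, which were at hand for 61 of the 81 genes. A pyrimidine run, here a C at the annotated start followed by at least 4 C or T on the gene strand, was found in 23.0% of the 61, in 0% of 69 mitochondrial ribosomal protein genes and in 2.71% of 16522 genes. TTCCGG, on either strand, was found in 54.1%, 58.0% and 21.5% in the same order, and ATGGCG in 31.1%, 27.5% and 12.7%. GGGCGG was in 60.7% of the 61 and 51.0% of all genes, CACGTG in 9.84% and 9.18%, TATAAA in 9.84% and 14.3%, and GCGCATGC in 4.92% and 4.11%. The median GC content was 57% in the members and 57% over all genes. These are counts of letters in a window and say nothing of which factor was bound. Pyrimidine runs that begin a few bases away from the annotated start, as in the Rpl13a sequence above, were not counted. The share with a run can therefore miss genes with a TOP tract.

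Facts about the libraries bear on all that follows. The lists carry no read totals, which leaves the depth unknown, and the labels do not say whether libraries of a group came from separate animals, so that p-values measure the spread between libraries. Lists held 51162 to 176559 peaks for H3K27ac and 13730 to 277213 for H3K4me3, and the H3K4me3 lists of HSC (13730 to 145750) reached lower than those of unstimulated BMDM (66146 to 212718). A list of 10 progenitor markers such as Kit and Gata2 had H3K27ac promoter peaks at 9 to 10 genes in HSC, with a mean percentile of 54.2 to 60.9, against 32.5 to 49.2 in unstimulated BMDM. For 10 macrophage markers the means were 15.7 to 31.6 in HSC and 23.6 to 53.1 in unstimulated BMDM, with 4 to 8 genes holding a peak in BMDM, and Msr1 and Marco had one in fewer than 5 of the 35 libraries. The H3K4me3 means of the progenitor list overlapped, at 51.0 to 66.5 and 54.4 to 68.1. For 6 erythroid markers, among them Gata1 and Klf1, the means had a median of 60.1 in HSC, with 51.7 as the lowest, and of 25.5 in unstimulated BMDM, all below that lowest value. How far these cell mixtures entered the results below was not tested. Over all promoters, 5 H3K27ac BMDM libraries correlated more closely with the other stimulation state than with their own: control stimulated library 5, diabetic stimulated library 6 and control unstimulated libraries 1, 5 and 6. Of the H3K4me3 BMDM libraries 10 did so, 9 of them stimulated. In 4 H3K4me3 libraries (control stimulated 6, diabetic stimulated 1 and 2, control unstimulated 6) the scaling of the peak scores is unclear. Counts of called genes were also made without either set. In bulk material, fewer cells that carry a mark and less of it in each cell cannot be told apart.

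Nearly all ribosomal protein genes carried both marks at their promoters. A library held an H3K27ac peak at 74 to 80 of the 81 genes, with a median of 79. Of all protein-coding genes 56.8 to 73.6% had one, and of the mitochondrial ribosomal protein genes 92.3 to 100%. H3K4me3 peaks were listed at 51 to 81 of the 81, with a median of 78. The shares were 40.8 to 79.3% of all genes and 60.3 to 98.7% of the mitochondrial set. Such occupancy was thus not particular to the cytosolic genes. In every library 72 of the 81 genes held an H3K27ac peak and 45 held an H3K4me3 peak. The peaks of the 81 genes were also strong. The median over the genes of their median percentile was 84.4 for H3K27ac, against 61.8 for the 16981 genes with a peak in at least 5 of the 35 libraries, and 73.9 for the mitochondrial ribosomal protein genes. For H3K4me3 it was 74.2, against 62.9 over 17255 genes and 63.6 for the mitochondrial set. The H3K27ac percentile was over 90 in 23 of the 81 genes and under 50 in 7, and for H3K4me3 in 7 and 12. Within a group the median SD of a gene was 7.16 percentile points for H3K27ac and 14.2 for H3K4me3, so that small differences in H3K4me3 rank lie within the spread of the libraries. Between the quartiles of the 81 medians, the ribosomal protein genes had a median SD of 7.24 and 14.4, and other genes 7.11 and 13.8.

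**Figure D1:**
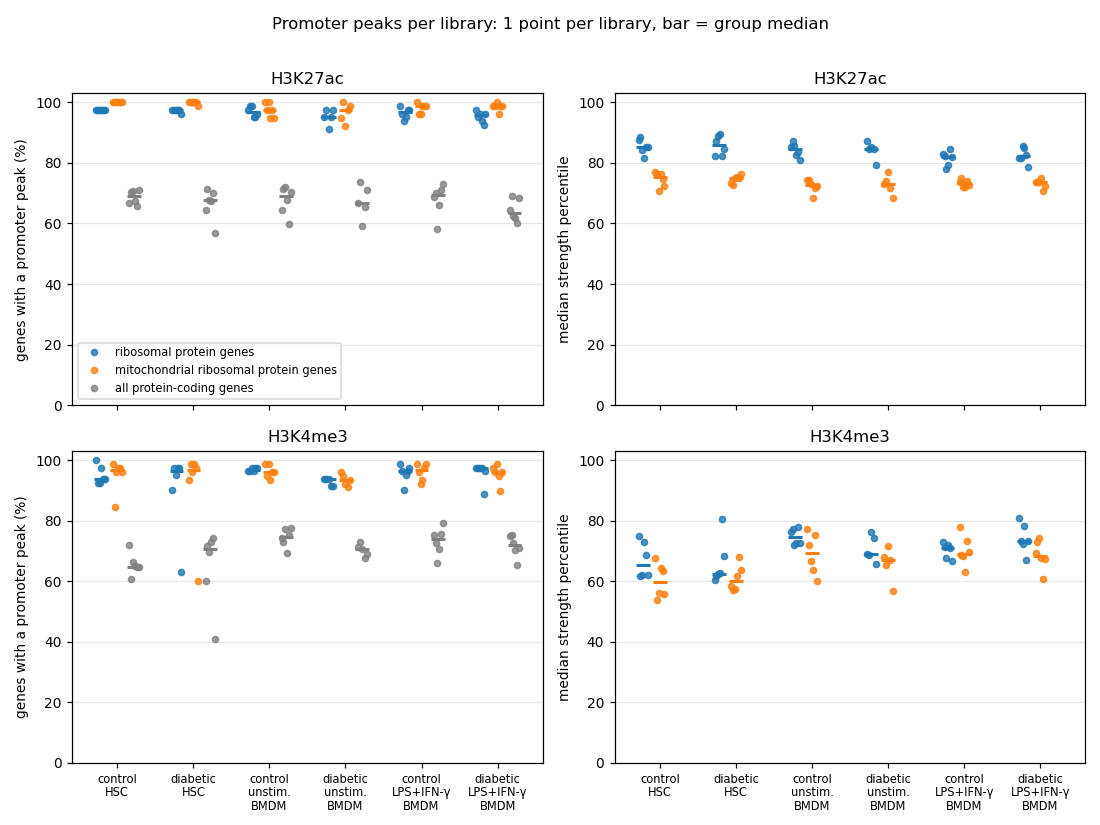
Share of genes with a promoter peak (left, percent) and median strength percentile (right) in each library for H3K27ac (top) and H3K4me3 (bottom), by group, for the ribosomal protein genes, the mitochondrial ribosomal protein genes and, at left, all protein-coding genes. Points are libraries and bars are group medians. The blue H3K27ac points at right lie between 78.1 and 89.4, and a diabetic HSC library of H3K4me3 stands apart at 51 of 81 genes.

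Among the proteins of the small subunit, the highest H3K27ac levels were at Rps14, a protein of the platform, and Rps13 (95.8). Rps14 stood at a median percentile of 98.1 (87.8 to 99.9 over 35 libraries) for H3K27ac and 91.8 (60.1 to 99.6) for H3K4me3. Rpsa, which is also known as the laminin receptor, had 93.5 (75.2 to 99.7) and, over the 34 libraries with a peak and 1 without, 93.6 (0 to 100.0). Its sequence is printed above. Fau, which is made as a fusion of a ubiquitin-like protein with Rps30, had 80.8 (64.3 to 96.1) for H3K27ac and 56.0 (41.5 to 98.7) for H3K4me3. Apart from the X-linked Rps4x, the lowest H3K27ac level of the small subunit was at Rps9, a protein at the entry of the messenger RNA channel, with 52.0 (0 to 80.1, a peak in 34 libraries) and 38.0 (0 to 82.4, 31 libraries). Rps28 was next at 58.7, and its 33.0 for H3K4me3, with a peak in 28 libraries, was the lowest of the subunit. The median over the small subunit was 86.4 for H3K27ac and 76.5 for H3K4me3.

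Among the proteins of the large subunit, Rpl17, at the exit of the peptide tunnel, had the highest median of all the genes for both marks. Its percentile was 99.0 (94.6 to 100.0) for H3K27ac and 95.6 (56.3 to 100.0) for H3K4me3. Rpl19 followed with 98.5 (64.2 to 99.8) and 91.2 (41.9 to 99.5), and Rpl9 (98.0) and Rpl34 (96.5) completed the 5 highest for H3K27ac. Rpl11, which binds Mdm2 when ribosome assembly fails, was among the 5 highest for H3K4me3, at 92.3 (53.5 to 99.7). Neighbours in this order did not differ beyond the ranges of their libraries. At the other end, Rpl4 had 60.0 and 52.2, and Rpl41, which encodes the shortest of the ribosomal proteins, had 63.9 (0 to 95.2) and 37.4 (0 to 89.0) with a peak in 34 and 26 libraries. The median over the large subunit was 83.1 for H3K27ac and 72.8 for H3K4me3.

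The 3 stalk proteins recruit translation factors to the large subunit. Rplp0, to which the other two bind, had the highest of their levels, at 94.1 (76.7 to 99.8) for H3K27ac and 76.2 (0 to 96.7) for H3K4me3. Rplp2 had 79.99 (65.4 to 95.4) and 64.0 (0 to 99.4). Rplp1 had 74.6 (57.7 to 92.7) and 65.2 (36.1 to 99.4), so that the 3 ranges overlapped in both marks.

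The 4 X-linked genes ranked low in both marks. For H3K27ac the median percentile was 49.2 at Rps4x (a peak in 33 libraries), 45.4 at Rpl39 (29), 40.5 at Rpl10 (21) and 34.97 at Rpl36a (21). For H3K4me3 it was 34.1 at Rps4x (26 libraries), 30.6 at Rpl39 (24) and 0 at both Rpl36a (6) and Rpl10 (3). Their highest values in any library were 52.4 to 64.1 for H3K27ac, all below the median of the 81 genes. X-linked genes as a whole also ranked below the median of all genes, with a median of 52.1 over 468 genes for H3K27ac and 40.3 over 504 for H3K4me3.

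The remaining low values belonged to genes whose symbol is that of another member plus l, which lie outside the standard set of ribosomal proteins in most tissues. Rpl39l had an H3K27ac peak in 5 libraries, all of BMDM, and Rpl10l in 10, so both medians were 0, and Rpl3l had one in 29 libraries with a median of 43.0. These genes had H3K4me3 peaks in 23, 29 and 25 libraries, with medians of 31.7, 33.9 and 32.6. Rps27l differed from those, with a peak in all 35 libraries of both marks and medians of 83.1 and 76.8. The X-linked genes and these 3 were the 7 lowest for H3K27ac and, together with Rps28, the 8 lowest for H3K4me3.

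**Figure D2:**
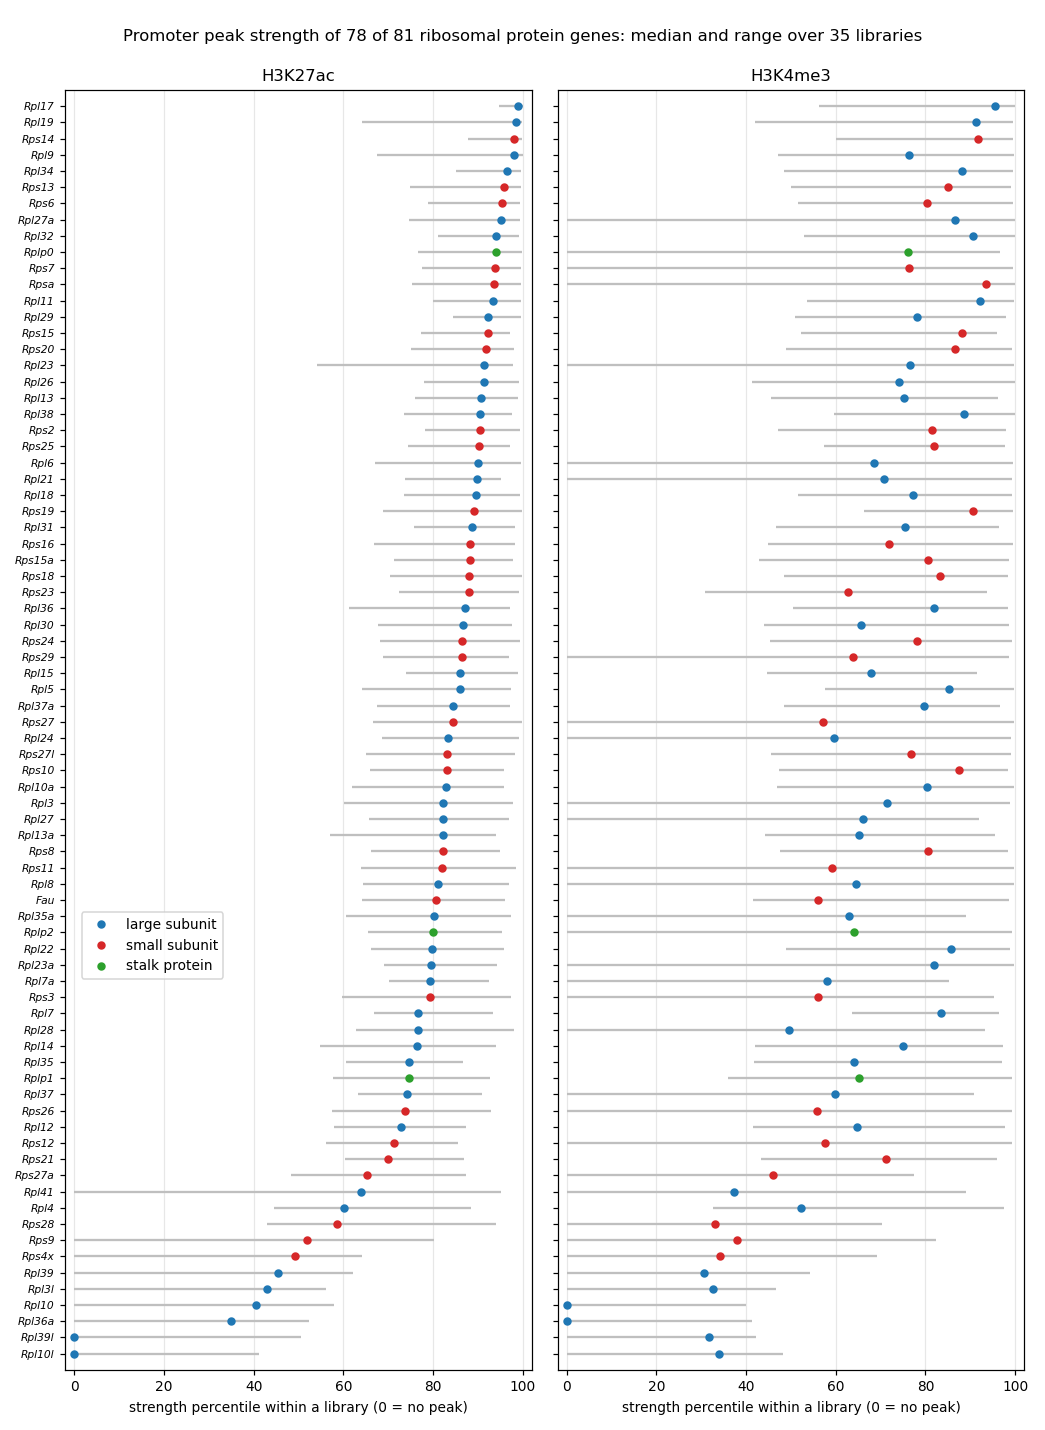
Strength percentile within a library (0 = no peak) for 78 of the 81 genes, ordered by the H3K27ac median, for H3K27ac (left) and H3K4me3 (right). Points are medians over 35 libraries, coloured by subunit, and grey lines run from the lowest to the highest library. The gene medians reach from 0 at Rpl10l and Rpl39l to 99.0 at Rpl17 for H3K27ac, and the ranges are wider for H3K4me3.

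Grouped by other properties, the medians lay closer together than those above, with the widest gap in H3K4me3 for named pseudogenes. The 29 genes that carry a small nucleolar RNA in an intron had a median percentile of 86.0 for H3K27ac and the other 52 had 83.8, with 71.5 and 75.3 for H3K4me3. A start site of another protein-coding gene lay within 1000 bp of 19 genes, such as Syngr1 beside Rpl3, Zwilch beside Rpl4, Rab13 beside Rps27 and Ndufa7 beside Rps28, and their peaks cannot be assigned to one gene. These 19 had medians of 83.0 and 67.9, against 85.2 and 75.2 for the other 62. RefSeq names 332 pseudogenes after 62 of the genes. Reads shared with such copies could make the values of those genes uncertain, which was not tested. The medians of the 62 were 86.4 and 75.9, and those of the 19 without a named copy 79.3 and 56.1. These 19 include the 4 genes with an added l and the low Rpl41, Rps9 and Rps28, so the groups differ in more than copies. The medians of both marks went together across genes (Spearman's rho 0.789 over 81 genes), as they did over 16619 genes (0.777). The points share libraries and list lengths, so this is a description.

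H3K27ac peaks of the ribosomal protein genes had a median width of 1214 bp, against 886 bp over all genes with a peak in at least 5 libraries. H3K4me3 peaks were 704 bp wide, against 789 bp over all genes. Between the quartiles of their strength medians, the ribosomal protein genes had 1237 bp for H3K27ac and other genes 1231 bp. For H3K4me3 these widths were 710 and 957.5 bp. The strongest position of a peak lay at a median of 107 bp past the nearest start for H3K27ac and 100 bp for H3K4me3. Some intervals reached the start of another gene: 19.6% of the H3K27ac intervals at these promoters, in 20 genes, and 14.2% of the H3K4me3 intervals, in 19 genes. At Rpl41 the strongest position lay at a median of 814 bp past the start, and 17 of 34 intervals held the start of Zc3h10. At Rpl4 it lay 611 bp before the start, on the side of Zwilch.

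HSC were then compared with unstimulated BMDM, control and diabetic libraries together, to ask whether these promoters differ between progenitor-rich marrow and macrophages. For H3K27ac strength few ribosomal protein genes were called: 10 of 81 passed limma's test with Benjamini-Hochberg adjustment over all 16981 genes, against 28.6% of all genes. Of the 10, 9 were higher in HSC (14.8% of all genes) and 1, Rpl3, was lower (13.8%). The median difference over the 81 genes was 0.857 percentile points and over all genes 0.416. At an unadjusted p under 0.05 there were 24.

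Of the 9 higher in HSC, 3 were X-linked. Rpl10, a protein that joins the large subunit late in assembly, had an H3K27ac peak in 12 of 12 HSC libraries with percentiles of 42.4, 50.1 and 57.9 (lowest, median and highest), in 5 of 11 unstimulated BMDM libraries (0, 0 and 52.8) and in 4 of 12 stimulated libraries (0, 0 and 49.2). Rpl36a had one in 12 of 12 HSC libraries (34.97, 41.1 and 52.4), in 4 of 11 unstimulated (0, 0 and 45.5) and in 5 of 12 stimulated libraries (0, 0 and 43.6). Rpl39, a small protein of the peptide tunnel, had one in 12 of 12 (44.2, 49.3 and 62.1), 7 of 11 (0, 38.3 and 52.9) and 10 of 12 (0, 44.5 and 53.6). In these 3 genes every HSC library had a peak, and the highest BMDM libraries overlapped the HSC range. The differences, HSC minus unstimulated BMDM, were 31.4 ± 7.17 percentile points (SE, limma adjusted p = 0.000749) at Rpl10, 28.2 ± 6.94 (adjusted p = 0.00166) at Rpl36a and 23.3 ± 6.47 (adjusted p = 0.00513) at Rpl39, and a part of each comes from the 0 given to libraries without a peak. The fourth X-linked gene, Rps4x, had medians of 50.7 in HSC and 48.7 in unstimulated BMDM and did not pass. Over all 468 X-linked genes, 148 were higher in HSC and 29 lower, with a median difference of 5.79. The promoters of Rpl10, Rpl36a and Rpl39 are among the sequences printed above.

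Rpl13a, which after release from the ribosome is also known to block translation of inflammatory messenger RNAs in myeloid cells given interferon-γ, was an autosomal call with no other gene's start in its intervals. Its percentiles were 76.6, 88.1 and 93.3 in HSC and 57.0, 72.3 and 87.0 in unstimulated BMDM. The ranges overlapped, with all 12 HSC libraries above the BMDM median, and the difference was 14.2 ± 3.01 (limma adjusted p = 0.000313). Rpl4, which lines the peptide tunnel, had 60.0, 71.8 and 85.9 in HSC and 47.8, 57.7 and 77.6 in unstimulated BMDM, a difference of 13.2 ± 3.51 (adjusted p = 0.00355), and its interval held the start of Zwilch in 11 of 12 HSC and 11 of 11 unstimulated BMDM libraries. Rpl3, a protein near the site of peptide bond formation, went the other way, with 60.2, 63.9 and 83.0 in HSC and 73.8, 86.2 and 90.3 in unstimulated BMDM. 1 of the 12 HSC libraries reached the BMDM range, and the difference was −18.0 ± 2.73 (adjusted p = 1.49e-06). Its interval held the start of Syngr1 in 6 of 12 HSC and 11 of 11 unstimulated BMDM libraries, so this value belongs to the shared stretch. Rpl13a, Rpl4 and Rpl3 and the 3 X-linked genes passed when any library was left out and under every alternative that kept them in the fit.

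Rpl41 had the largest difference, and it depended on how a long interval was read. Its percentiles were 54.0, 83.4 and 95.2 in HSC and 0, 50.8 and 79.7 in unstimulated BMDM, which gave 31.5 ± 6.14 (limma adjusted p = 0.000156). The strongest position of its interval lay over 1000 bp from its start in 11 of 12 HSC libraries and 2 of 11 unstimulated BMDM libraries, and intervals with the start of Zc3h10 inside were as many. When only positions within 1000 bp of a start of Rpl41 were read, a choice made after seeing the data, the percentiles became 53.6, 59.5 and 64.8 in HSC and 0, 50.3 and 66.7 in unstimulated BMDM. The difference fell to 11.3 and no longer passed (adjusted p = 0.0761, with 2.69e-05 to 0.0761 across alternatives). With that reading 9 of the 81 genes were called.

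Of the remaining calls, those described here were small. Rps27, whose promoter carries the pyrimidine run printed above, had 73.2, 96.3 and 99.9 in HSC and 71.1, 84.4 and 94.7 in unstimulated BMDM, a difference of 8.61 ± 3.03 (limma adjusted p = 0.0280, with 0.00183 to 0.249 across alternatives). Rps29, a zinc-binding protein of the small subunit, differed by 6.72 ± 2.43 (adjusted p = 0.0326, with 0.0248 to 0.266). Their ranges in HSC and BMDM overlapped. Rps27 was lost without diabetic HSC library 2, 5 or 6, diabetic unstimulated library 2 or 6 or control unstimulated library 4 or 6, and Rps29 without control HSC library 1 or 2, diabetic HSC library 2 or 5, diabetic unstimulated library 2 or 4 or control unstimulated library 2 or 5. Without the 5 BMDM libraries nearer to the other state, left out after seeing the data, 11 genes were called, and Rps28 (10.4 ± 3.83, adjusted p = 0.0396) was among those that came in.

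**Figure D3:**
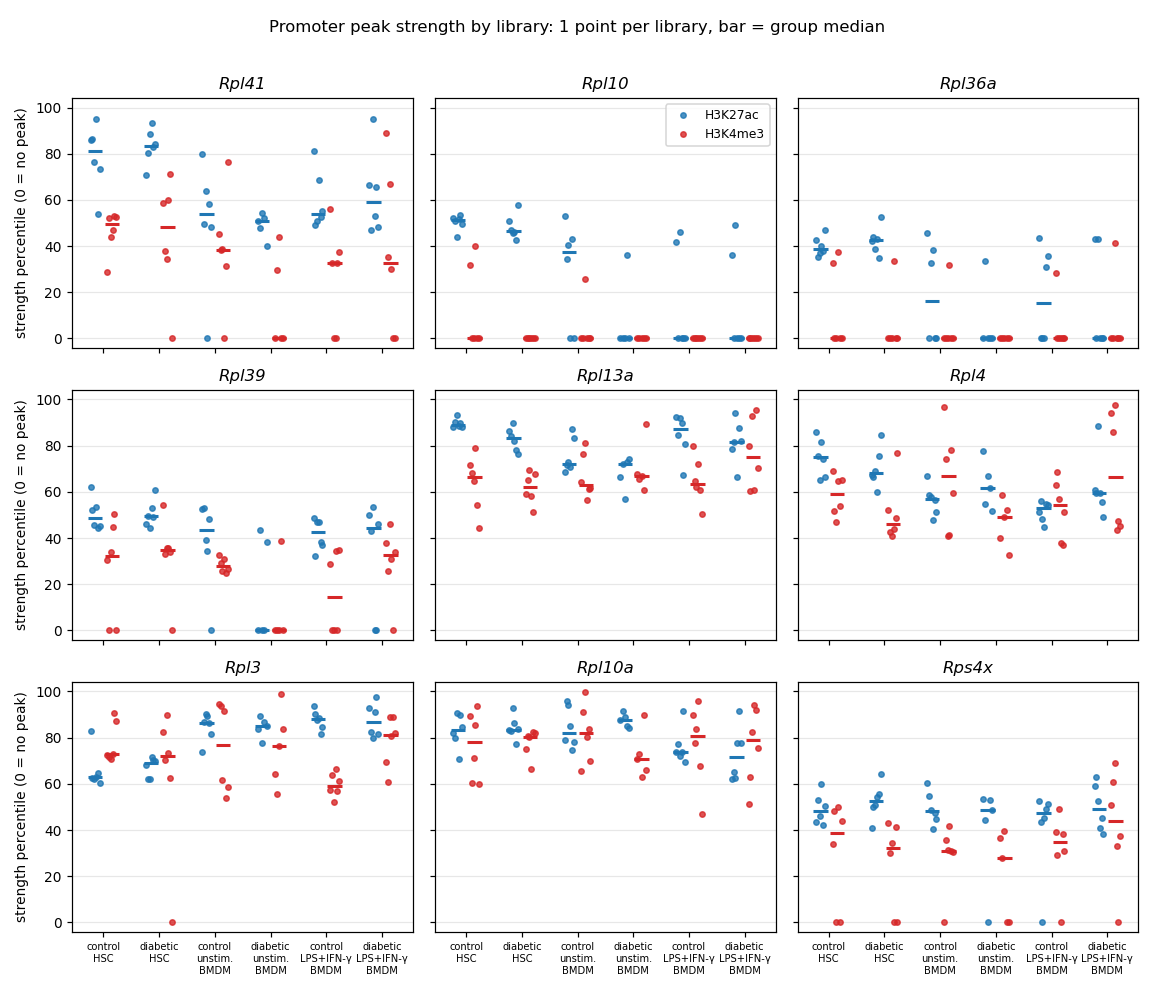
Strength percentile (0 = no peak) in every library for 9 ribosomal protein genes, by group, for H3K27ac (blue) and H3K4me3 (red). Points are libraries and bars are group medians. Rpl10, Rpl36a and Rpl39 have an H3K27ac peak in all 12 HSC libraries and in 5, 4 and 7 of 11 unstimulated BMDM libraries, while Rpl3 is lower in HSC.

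Width gave more calls than strength. H3K27ac width ranks passed for 25 of 81 genes, where 24.7% of all genes passed. Of these, 23 were wider in HSC (13.3% of all genes) and 2 were narrower (11.3%). The median difference was 6.14 percentile points over the 81 genes and −0.0127 over all genes, and 38 genes had an unadjusted p under 0.05. In base pairs, the median peak of the set was 1182 to 1488 bp wide in HSC libraries, 794 to 1438 bp in unstimulated BMDM and 622 to 1698.5 bp in stimulated BMDM. The median over all genes was 893 to 1148 bp in HSC and 703 to 1112 bp in unstimulated BMDM. The ranges overlapped in both.

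Rps18, of the head of the small subunit, had a median width of 1970 bp in HSC and 693 bp in unstimulated BMDM, which was 24.6 ± 7.05 percentile points (limma adjusted p = 0.0101), and Rps19, the gene most often mutated in Diamond-Blackfan anemia, had 2510 and 1053 bp (18.7 ± 4.90, adjusted p = 0.00530). Rps9 had 1258 and 614 bp (20.7 ± 5.48, adjusted p = 0.00568) and Rps27 had 1163 and 586 bp (18.7 ± 5.09, adjusted p = 0.00700). In all of these the width ranks of HSC and BMDM overlapped. Rps27a, made as a fusion with ubiquitin, had 1454 and 893 bp (17.1 ± 2.91, adjusted p = 5.53e-05), with width percentiles of 74.6 to 92.0 and 56.2 to 77.1 that overlapped at their ends. Another gene starts within 1000 bp of Rps18 (Vps52), Rps27 (Rab13) and Rps27a (Clhc1), so these widths cannot be assigned to them alone. Of the large subunit, Rpl18 had 3189 and 1130 bp (21.8 ± 4.89, adjusted p = 0.00132), and its intervals held the start of Sphk2 in 12 of 12 and 9 of 11 libraries. Rpl10 (36.1), Rpl36a (35.03), Rpl39 (33.8) and Rpl13a (21.3) were wider in HSC as well as stronger. Rpl41 was wider too (35.1), but its intervals held the start of Zc3h10 in 11 of 12 HSC and 2 of 11 unstimulated BMDM libraries, and its strength call was lost when read near its own start. The narrower pair was Rpl3, with 954 bp in HSC and 2774 bp in unstimulated BMDM (−36.9 ± 4.63, adjusted p = 5.41e-07), and Rpl10a (−6.06 ± 1.84, adjusted p = 0.0153). At Rpl3 the width percentiles did not overlap (39.3 to 95.4 in HSC and 97.5 to 99.4 in unstimulated BMDM), and every unstimulated BMDM interval covered the start of Syngr1 too. When 1 library at a time was left out, 4 calls were lost in part of the 23 fits: Rpl13a was kept in 8, Rpl30 in 8, Rpsa in 11 and Rpl13 in 7. The other 21 were kept in all 23, and Rps27a (adjusted p = 0.150), Rps27, Rps3, Rpl14 and Rpl10a were among those lost when each list was held to its top 10000 peaks. Of the rest, 11 genes from Rpl37a (15.8) to Rpl13 (3.43) differed by smaller amounts than Rps27a.

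H3K4me3 gave fewer calls than H3K27ac. Strength passed for 8 of 80 genes, against 17.3% of all 17255 genes; Rpl10 was not tested because it had a peak in only 3 libraries. There were 6 lower in HSC (12.1% of all genes) and 2 higher (5.2%), with 24 at an unadjusted p under 0.05. The median difference was −5.33 percentile points over the 80 genes and −3.03 over all genes. No gene was called for strength in both marks. The share of all genes called in both was not counted, and with 10 and 8 calls an overlap of 0 says little. Rps18, at the head of the small subunit, had 48.5, 60.9 and 88.3 (lowest, median and highest percentile) in HSC and 54.1, 94.2 and 97.8 in unstimulated BMDM, a difference of −22.6 ± 5.57 (limma adjusted p = 0.00481). Rpl23a, which faces the exiting peptide, had 0, 63.9 and 96.1 against 56.6, 93.7 and 99.9 (−24.9 ± 6.75, adjusted p = 0.00925). Rpl38, whose loss in mice alters the pattern of the vertebrae, had 59.7, 75.6 and 88.7 against 67.1, 92.3 and 94.7 (−14.9 ± 4.05, adjusted p = 0.00929), but ranked by fold enrichment the difference of Rpl38 changed sign (0.744, adjusted p = 0.959, with 0.00878 to 0.959 across alternatives). In each of the 3 the ranges overlapped and the HSC median lay below the BMDM median. Rpl6 (−23.9 ± 7.30, adjusted p = 0.0198), Rpl23 (−19.0 ± 6.82, adjusted p = 0.0449) and Rpl3l (−18.8 ± 6.42, adjusted p = 0.0358) were lower too. Rps28 was higher in HSC (19.8 ± 6.58, adjusted p = 0.0312) and had a peak in 11 of 12 HSC and 6 of 11 unstimulated BMDM libraries.

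These H3K4me3 differences moved with list length, which reached lower values in HSC. With the logarithm of the number of peaks as a covariate 2 genes were called, and of the 8 called without it Rps28 (adjusted p between 0.0154 and 0.0798 across its alternatives) was the only one that remained. When 1 library at a time was left out, Rps28 was kept in 18 of 23 fits, Rpl3l in 10 and Rpl23 in 8, and the other 5 in all. By fold enrichment in place of −log10 p, 2 were called. With control HSC library 3 left out the count was 5, and with diabetic HSC library 5 left out it was 14. Without control stimulated library 5 and control unstimulated libraries 5 and 6, which are 3 of the 5 nearer to the other state in H3K27ac, 4 were called. In H3K4me3 both of these unstimulated libraries correlated more closely with their own state. Without the 4 libraries of unclear scaling 6 were called, and Rpl23, Rpl3l and Rps28 lost their call. For width, 4 of 80 passed against 7.59% of all genes. All 4 were wider in HSC (1.87% of all genes) and 0 were narrower (5.71%), with 19 at an unadjusted p under 0.05. Among them were Rpl32 (17.9 ± 4.06, limma adjusted p = 0.00544), Rps27l (15.7 ± 4.31, adjusted p = 0.0206) and Rps24 (11.5 ± 3.59, adjusted p = 0.0429). Polr3a starts within 1000 bp of Rps24. Rpl32 was kept in all 23 fits without 1 library, Rps27l in 22 and Rps24 in 8. With list length as a covariate limma called 0, and without the 4 libraries of unclear scaling 2.

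**Figure D4:**
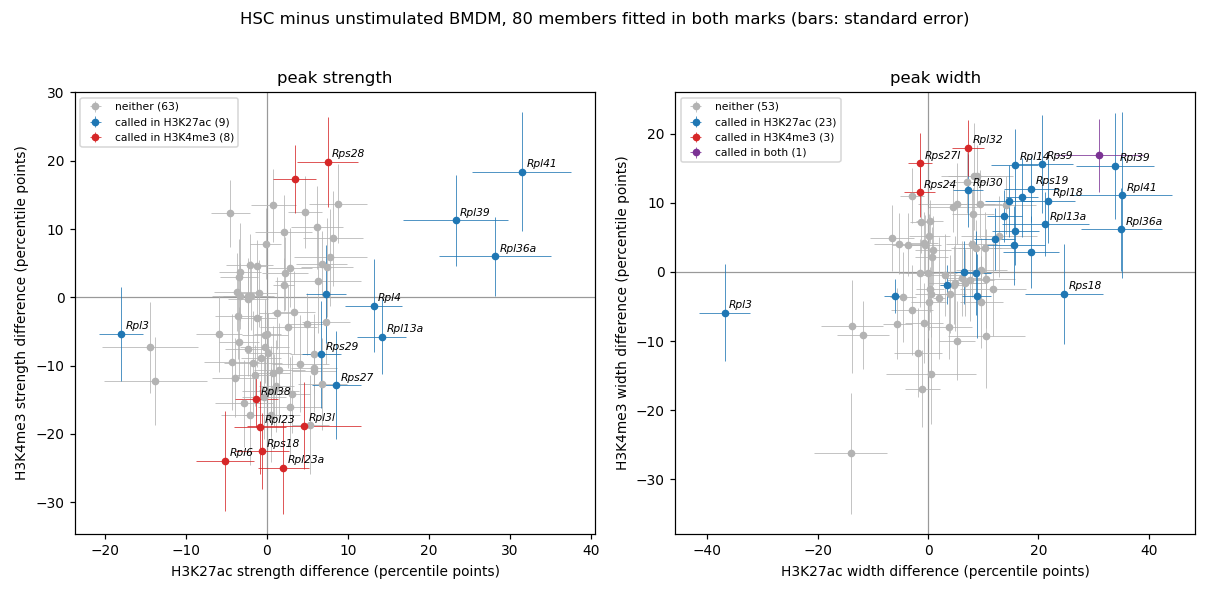
Difference in percentile points, HSC minus unstimulated BMDM, of H3K27ac (horizontal) and H3K4me3 (vertical) for the 80 genes fitted in both marks, for strength (left) and width (right). Bars are standard errors and colours show calls at an adjusted p under 0.05, with some of them named. Rpl3 stands alone at the left with −18.0 in strength and −36.9 in width.

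Other genes of the translation machinery were read beside these. Of 21 translation factors and other genes with TOP transcripts, 3 were higher in HSC for H3K27ac strength and 2 lower, with a median difference of 0.830. Over all genes 14.8% were higher and 13.8% lower. The higher ones were Hnrnpa1 (20.4), Eef1d (11.7) and Eif4b (7.84), and the lower ones were Vim (−19.1), a filament protein, and Naca, which shields nascent chains. Of 30 ribosome biogenesis genes, 7 were higher and 0 lower, among them Nop10 (36.3) and Dkc1 (29.0), which act in pseudouridylation, and Nolc1 (19.9), with a median difference of 2.40. Of the 78 mitochondrial ribosomal protein genes, 13 were higher and 4 lower, with a median of 2.64, a share of higher genes near that of all genes. For H3K4me3, where 5.2% of all genes were higher and 12.1% lower, the counts were 1 higher and 2 lower, 2 and 8, and 1 and 14 in the same order.

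Stimulation with LPS+IFN-γ was the inflammatory challenge of the study. Few promoters changed in rank with it, among these genes as among all genes. For H3K27ac strength 2 of 81 genes passed, against 2.05% of all genes, with 13 at an unadjusted p under 0.05. Rpl13a was higher after stimulation (0.936% of all genes were), with percentiles of 57.0, 72.3 and 87.0 in 11 unstimulated libraries and 66.5, 83.2 and 94.2 in 12 stimulated ones, a difference of 10.998 ± 3.01 (limma adjusted p = 0.0389, with 0.000857 to 0.0987 across alternatives). Rpl10a was lower (1.11% of all genes were), with 74.7, 85.2 and 95.9 against 61.9, 73.8 and 91.5, a difference of −11.4 ± 3.19 (adjusted p = 0.0423, with 0.00136 to 0.299). The ranges overlapped in both. Each call rested on single libraries: Rpl13a stayed past the threshold in 10 of the 23 fits that left out 1 library and Rpl10a in 7. Rpl13a was lost without control stimulated library 1, 2, 3 or 4, diabetic stimulated library 2, 3 or 5, control unstimulated library 1, 2, 3 or 4 or diabetic unstimulated library 1 or 4. Rpl10a was lost without control stimulated library 1, 2, 3, 4 or 6, diabetic stimulated library 1, 2 or 3, control unstimulated library 2, 3 or 4 or diabetic unstimulated library 1, 2, 4, 5 or 6.

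The 5 H3K27ac BMDM libraries nearer to the other state were left out after seeing the data. Because they were chosen for their likeness to the other state, leaving them out widens differences between the states by construction, and these values lend the calls no support. Rpl13a then differed by 14.7 ± 3.10 (limma adjusted p = 0.00273) and Rpl10a by −17.1 ± 3.38 (adjusted p = 0.00136), and Rps19 was called as well (−10.4 ± 3.12, adjusted p = 0.0320). The 3 control BMDM libraries left out in another alternative are among these 5. The same limit holds for that alternative and for the ranges across alternatives given above. As a yardstick, 15 tested genes of macrophage activation had a median difference of 9.34, of which Ptgs2 (16.2) and Cxcl10 (27.5) passed. Their mean percentile reached 45.7 in control unstimulated library 1 and lay between 30.7 and 52.0 in stimulated libraries. For H3K27ac width 0 of 81 passed by limma (0.106% of all genes did), with 4 at an unadjusted p under 0.05. The largest negative width difference was −12.0 at Rpl4 (adjusted p = 0.537). For H3K4me3 limma called 0 of 80 for strength and for width, where 0% of all genes passed, and 4 and 2 had an unadjusted p under 0.05. Without the 4 libraries of unclear scaling both counts were 0 as well. The largest strength differences with all libraries were 18.7 at Rpl24 and −14.8 at Rps3, each with an adjusted p of 1.00.

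Diabetic libraries were then compared with controls in each cell state. No ribosomal protein gene passed in any of them. For H3K27ac strength limma called 0 of 81 genes in each of the 3 states (0% of all genes). At an unadjusted p under 0.05 there were 0 in HSC, 3 in the unstimulated and 5 in the stimulated cells. The median differences over the 81 genes were 1.01, −0.188 and 0.515 percentile points, and the median SE of a gene was 3.99 in HSC and in stimulated BMDM and 4.18 in unstimulated BMDM. In HSC the largest difference was at Rps9, with 58.0, 62.0 and 71.7 in control and 50.6, 54.9 and 60.1 in diabetic libraries (−8.76 ± 6.20, adjusted p = 1.00), ranges that barely overlapped. Rps18 lay at the other end (6.305 ± 4.61, adjusted p = 1.00).

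In unstimulated BMDM the largest difference was at Rpl39, where 5 of 6 control libraries and 2 of 5 diabetic libraries had a peak. Its percentiles were 0, 43.7 and 52.9 in controls and 0, 0 and 43.3 in diabetic libraries (−21.6 ± 9.37, limma adjusted p = 0.871). Rps29 had the largest positive difference (7.08 ± 3.52, adjusted p = 0.920). In stimulated BMDM, Fau had 80.8, 87.4 and 92.6 in controls and 64.3, 70.5 and 91.5 in diabetic libraries (−12.1 ± 4.80, adjusted p = 0.924). Rpl4 had 44.6, 52.9 and 56.0 against 49.3, 59.5 and 88.4 (10.6 ± 4.85, adjusted p = 0.968). In each of these the groups overlapped, and none passed.

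**Figure D5:**
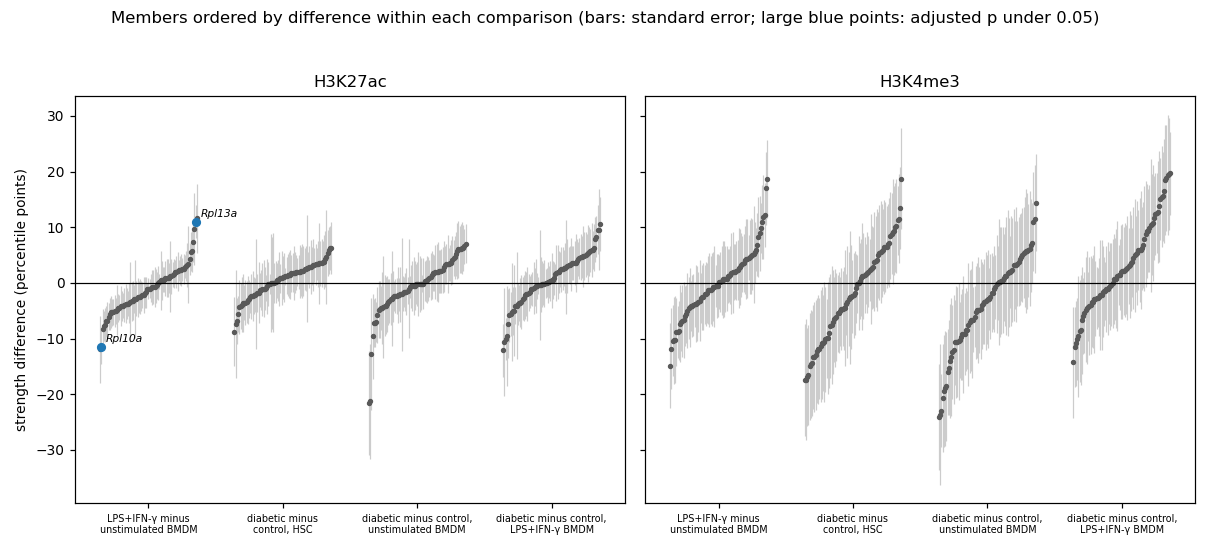
Differences in strength percentile with standard errors for every ribosomal protein gene, ordered within each comparison, for H3K27ac (left) and H3K4me3 (right): stimulated minus unstimulated BMDM, and diabetic minus control within each of the 3 states. Large blue points have an adjusted p under 0.05. The labelled points are Rpl13a (10.998) and Rpl10a (−11.4) after stimulation, and the 6 disease comparisons have 0.

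H3K4me3 strength gave 0 of 80 by limma in all 3 disease comparisons (0% of all genes), and 1, 4 and 2 genes (HSC first, stimulated last) had an unadjusted p under 0.05. Without the 4 libraries of unclear scaling the count was 0 in both BMDM states. The median SE of a gene was 8.37 in HSC and stimulated BMDM and 8.78 in unstimulated BMDM. In HSC, Rplp1 had 40.1, 45.0 and 64.7 in controls and 36.1, 65.0 and 95.1 in diabetic libraries (18.7 ± 9.08, adjusted p = 0.849). Rps28 had an H3K4me3 median of 31.1 in control and 0 in diabetic unstimulated BMDM (−24.1 ± 9.53, adjusted p = 1.00). Rpl37a, at 53.3, 65.2 and 93.2 in controls and 83.3, 86.8 and 96.6 in diabetic stimulated BMDM, had the largest positive difference there (19.7 ± 7.48, adjusted p = 1.00). The groups overlapped in each.

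For H3K27ac width, limma called 0 of 81 genes in HSC (0.0412% of all genes passed) and 0 in either BMDM state (0%). There were 1, 4 and 3 genes at an unadjusted p under 0.05. Its largest value was at Rpl39 in unstimulated BMDM (−31.4 ± 10.2, adjusted p = 0.912). For H3K4me3 it called 0 of 80 in HSC (0%), unstimulated BMDM (0.0058%) and stimulated BMDM (0%), and 10, 7 and 6 had an unadjusted p under 0.05. Rps28 in unstimulated BMDM had the largest value (−38.9 ± 11.2, adjusted p = 0.854). Whether the HSC to BMDM difference or the stimulation difference was itself altered by diabetes was tested as an interaction of strength, and limma called 0 genes in both marks (0% of all genes). At an unadjusted p under 0.05 there were 1 and 2 of 81 for H3K27ac and 3 and 7 of 80 for H3K4me3. In H3K4me3 the largest interaction for HSC against BMDM was at Rps13 (34.2 ± 8.99, limma adjusted p = 0.979).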

How the data were processed

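H3K27ac and H3K4me3 peak lists of 70 libraries were used; 36 input samples of the 106 in the series were not analysed here. Per the labels and the submitters' processing notes, which give no role or order, the tools were Trim Galore 0.3.3, cutadapt 1.8, FastQC 0.11.3, Bowtie2 2.2.6, Picard 2.18.14 and 2.19.2, bedtools 2.19.1 and MACS2 2.2.7.1, with builds GRCm38 and mm10. The deposited −log10 p of each peak ranked it within its own library, and the deposited fold (a ratio over local background) ranked it in an alternative. The deposited −log10 q, the score that repeats it and the deposited summit offset rated or placed peaks and were not compared between libraries.

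Intervals listed once per summit were joined. Peaks were matched to 93513 GENCODE start sites on 21 chromosomes, 1000 bp to either side. Genes with a promoter peak in at least 5 of 35 libraries were fitted in limma 3.58.1 (R 4.3.3, trend and robust) with 6 group means per mark, and p-values were adjusted by Benjamini-Hochberg over all fitted genes, with calls at an adjusted p under 0.05. On simulated data for HSC minus unstimulated BMDM strength, with 200 genes shifted by 0.5 normal score, 57% of them were recovered among 16981 H3K27ac genes and 18% among 17255 H3K4me3 genes, with 3.4% and 5.3% of calls false. Members, marker lists, pathway lists and motifs were chosen with earlier results of these data known. Named genes were those called, the largest differences where none was called, the 5 highest and 5 lowest medians, genes without a peak in some libraries, Rpsa, Fau, the stalk proteins, the X-linked genes and those with an added l. Alternatives were a normal score, fold, the top 10000 peaks, no filter, a 500 bp window, list length, replicate block, and libraries left out. Results of 3 single genes are not reported here. Sequences are from RefSeq (GRCm38.p6). Python 3.11.15, numpy 2.4.6, pandas 2.3.3, scipy 1.17.1 and matplotlib 3.10.9 were used.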

Additional observations from a re-analysis of the deposited data

Results flagged for a closer look

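In groups of 5 or 6 libraries, 4 of 36 checks of the ribosomal protein genes found a library set apart from the rest of its group by Dixon's criterion at 95%, which chance meets in about 1 of 20 groups. For H3K27ac, diabetic HSC library 6 held a peak at 78 of the 81 genes and the other 5 libraries at 79. For H3K4me3, diabetic HSC library 6 held a peak at 51 genes, with the nearest library at 73, and diabetic stimulated BMDM library 5 at 72, with the nearest at 78. The median width of H3K4me3 peaks at these promoters was 623 bp in diabetic unstimulated BMDM library 1, with the nearest at 648.5 bp.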

How the results depend on the processing

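Counts of called ribosomal protein genes, with a few summaries of occupancy and median percentile, were recomputed 206 times under listed alternatives. Of these, 187 were classed as unchanged. That meant within 1.5 times the main value for a count, and within the SD over libraries for a summary. In most comparisons the main count was 0, and a 0 that stayed 0 was taken as unchanged, so the 187 says little of the other counts. Of 2828 named differences 2601 kept direction and call, 192 lost the call, 12 gained a call and 23 changed sign. For H3K27ac stimulation, 2 genes became 1 by normal score, 0 by fold, 0 with the top 10000 peaks and 0 with no filter, and 0 to 2 without 1 library. For H3K27ac width in diabetic HSC, the top 10000 peaks gave 1 in place of 0. For H3K4me3 strength in HSC against BMDM, 8 became 5 by normal score, 2 by fold, 4 with no filter, 2 with list length and 4 without the 3 control BMDM libraries, and 5 to 14 without 1 library. For H3K4me3 width, 4 became 0 with list length, 2 without the 3 control BMDM libraries and 2 without the 4 libraries of unclear scaling, and 1 without diabetic unstimulated library 2 to 8 without diabetic HSC library 5. With the top 10000 peaks the median library held 71 genes with H3K27ac and 55 with H3K4me3, and ranks among the peaks of a list gave medians of 97.3 and 93.9. The causes were not tested.

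Same-numbered libraries of different groups had a median correlation of deviations of 0.0530 for H3K27ac across disease groups (51 pairs, 13 over 0.1). Within disease groups it was 0.00800 (34 pairs, 7 over 0.1), and for H3K4me3 the medians were 0.0205 and 0.0258. Differently numbered libraries had lower medians in the same order, −0.0172 and −0.00432 for H3K27ac and −0.00248 and −0.00972 for H3K4me3. The ranges of same-numbered and differently numbered pairs overlapped. The main fits did not pair libraries by number, and whether same-numbered libraries share an animal or a batch was not tested. A replicate block left the H3K27ac strength count in HSC against BMDM at 10 and moved the stimulation count from 2 to 1, or to 0 with the block within disease.

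Signs changed in HSC against BMDM for 1 called difference, Rpl38 in H3K4me3 (−14.9), which became 0.744 by fold, and for differences that had not passed. Rplp1 in H3K27ac (0.501) became −0.00391 (in normal-score units) by normal score, −0.392 with the block within disease, −2.58 without the 3 control BMDM libraries and −1.54 without the 5 nearer to the other state, and ran from −1.16 to 2.00 without 1 library. Rpsa in H3K27ac (−1.18) became 1.09 by fold and ran from −2.17 to 0.206. Rpsa in H3K4me3 (−2.98) became 0.202 (in the same units) by normal score, 12.0 by fold, 1.77 with the top 10000 peaks and 9.20 with list length, and ran from −6.04 to 5.13. In H3K4me3, Rplp0 (3.66) became −0.994 without the 3 control BMDM libraries, and Rps4x (2.43) ran from −0.408 to 5.36. Alternatives chosen after seeing the data were the strongest position within 1000 bp and leaving out the 5 BMDM libraries. The 3 control BMDM libraries are among those 5, so leaving them out lends the H3K27ac stimulation calls no support either. Depth is unknown, so a weak mark and a shallow library cannot be told apart where a peak is missing.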
